A study of Homo sapiens with 9 samples.

Results

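The immediate early genes described here were 10 of 20046 protein-coding genes of the human annotation: FOS, FOSL1, JUN, JUNB, JUND, EGR1, IER2, MYC, ATF3 and SRF. They were chosen by name as classic genes with paused polymerase. Occupancy of RNA polymerase II had been mapped by chromatin immunoprecipitation and sequencing of POLR2A, its largest subunit, in HEK293T, an established human embryonic kidney line. Cells with a control shRNA, whose genotype is labelled wildtype, were compared with cells after knockdown of U2AF1, the U2 auxiliary factor subunit that reads the AG of a 3′ splice site, and with cells after knockdown of DHX9, a helicase that unwinds RNA and DNA hybrids. Each condition had 2 ChIP replicates and 1 input, and the growth medium contained serum. The labels name no serum or growth factor stimulation and give no time after knockdown, and the lists do not measure how far either protein was depleted. The values used were 3 deposited lists of peaks, 1 for each condition. No value below has a replicate error, and no difference between lists was tested. Where 3 values stand together without labels, their order is control, U2AF1 knockdown, DHX9 knockdown.

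Immediate early genes are transcribed within minutes of a stimulus, without new protein synthesis. Growth factor signals reach them through MAP kinases, which act on SRF and its partners at the CArG box of the serum response element, and through CREB family factors at cAMP response elements. At many of them polymerase is held shortly after the start site and is released into elongation on stimulation. The products are mostly transcription factors. JUN and FOS proteins pair to form AP-1, ATF3 is a related leucine zipper protein, MYC drives growth programmes, EGR1 is a zinc finger factor, IER2 is a small nuclear protein, and SRF is both an activator of the group and a target of it.

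A peak was assigned to a gene when its summit, the position of highest signal, fell inside the gene or no more than 1000 bp from any of its transcript starts. By this rule 6 of the 10 genes had a peak in the control list, against 13.2% of all protein-coding genes. In the U2AF1 knockdown list 6 of 10 had a peak, against 7.34%, and in the DHX9 knockdown list 6 of 10, against 22.2%. The count of immediate early genes was thus the same in 3 lists whose number of genes with a peak ran from 1472 to 4442. JUN, JUND, IER2, MYC and ATF3 had a peak in all 3 lists, which 4.34% of protein-coding genes did. JUNB had a peak in the control and U2AF1 knockdown lists and none in the DHX9 knockdown list, and EGR1 had a peak in the DHX9 knockdown list alone. FOS, FOSL1 and SRF had a peak in no list, as did 73.6% of protein-coding genes. With the summit at a start site required, 5 of the 10 genes had a peak in each list, against 12.6%, 6.64% and 21.0% of protein-coding genes.

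None of the 6 genes with a control peak was missing under U2AF1 knockdown (0 of 6), whereas 63.5% of all genes with a control peak were. A limit set after the data were seen kept the 689 genes whose control peak stood in the top 25% of its list, where all 6 immediate early genes stood. Of these, 40.1% had no U2AF1 knockdown peak, with 0 of 6 immediate early genes among them, and 12.6% no DHX9 knockdown peak, with 1 of 6 among them, JUNB.

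Each peak carries the authors' fold enrichment, a ratio to background whose scale depends on the depth and background of its own library. Peaks are therefore compared by rank within a list, given also as a percentile in which a value near 0 marks the highest peaks. Over the 6 genes with a peak the median percentile of the strongest peak was 12.0, 14.2 and 10.7. The 6 genes include JUNB in the control and U2AF1 knockdown lists and EGR1 instead in the DHX9 knockdown list. With each list reduced to its 1730 most significant peaks the median was 19.1, 14.2 and 20.5, the last over 5 genes, without EGR1. The order of the 3 lists thus turned and is not read as a difference. The median over all peaks at starts of protein-coding genes was 45.4, 41.4 and 46.2. JUND and ATF3 held the 2 highest places among the immediate early genes in every list.

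**Figure D1:**
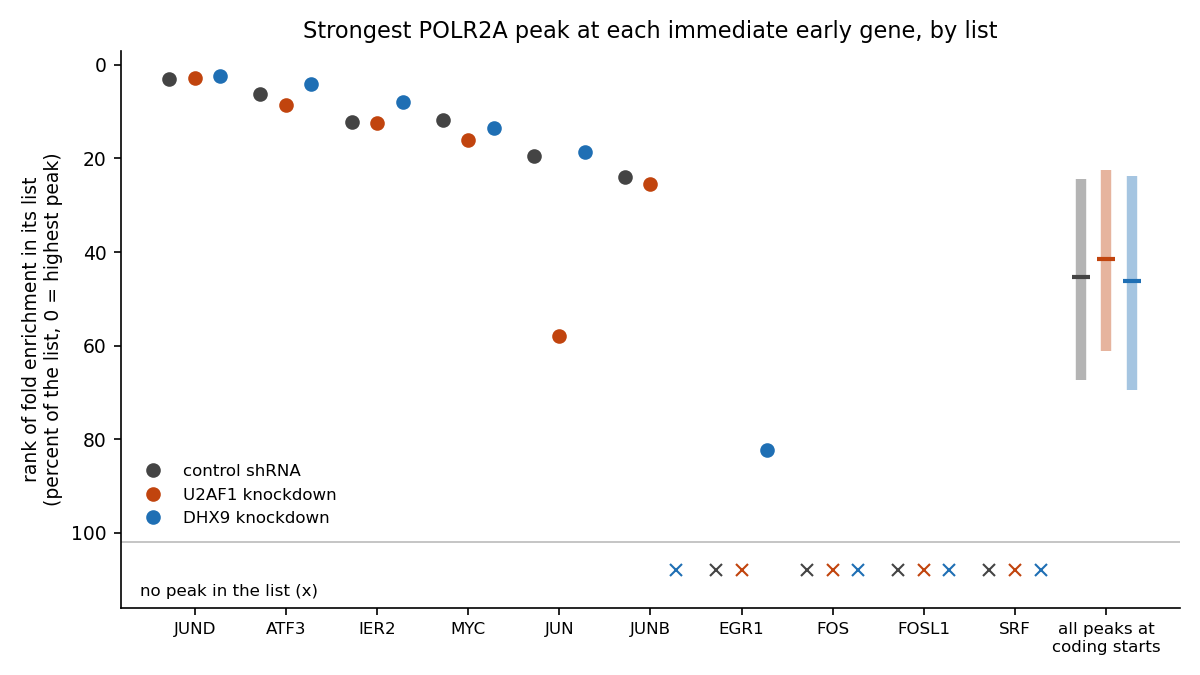
Rank percentile of the strongest POLR2A peak at each immediate early gene (vertical axis, percent of the list, 0 at the top for the highest peak), with 1 colour for each condition. Points are single peaks without replicates, crosses mark genes without a peak, and on the right bars give the middle quartiles and ticks the median of all peaks at protein-coding starts; JUND stays between 2.34 and 2.94, JUN drops to 57.9 in the U2AF1 knockdown list, and EGR1 appears in the DHX9 knockdown list alone at 82.2.

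The 120 bases before the start of the canonical transcript are shown to set promoters with a high peak in the control list (JUN, JUNB, JUND and ATF3) beside those with a peak in 1 list or none (FOS, EGR1 and SRF). Sequences are from GRCh38, 5′ to 3′ along the gene, and end at the base before the start. Except for ATF3, whose entries lie at other starts, the region from 250 bases before to 50 after the start was identical to the RefSeq promoter of GRCh38.p14. Capitals mark complete matches on either strand to the CArG box (CC, 6 letters of A or T, GG), the cAMP response element TGACGTCA or its core TGACG, the GC box GGGCGG, the CCAAT box and the TATA box TATAAA.
JUN (chr1:58784048-58784167, minus strand): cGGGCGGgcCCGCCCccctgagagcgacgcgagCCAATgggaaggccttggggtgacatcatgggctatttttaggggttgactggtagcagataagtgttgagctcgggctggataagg
JUNB (chr19:12791366-12791485, plus strand): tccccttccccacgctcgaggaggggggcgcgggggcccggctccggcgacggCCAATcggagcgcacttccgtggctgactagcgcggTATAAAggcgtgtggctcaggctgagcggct
JUND (chr19:18281623-18281742, minus strand): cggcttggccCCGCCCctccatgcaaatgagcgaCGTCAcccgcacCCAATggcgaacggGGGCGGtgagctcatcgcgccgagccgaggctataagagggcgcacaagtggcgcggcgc
ATF3 (chr1:212608641-212608760, plus strand): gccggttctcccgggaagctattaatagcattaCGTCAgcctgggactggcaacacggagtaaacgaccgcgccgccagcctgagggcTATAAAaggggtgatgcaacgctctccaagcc
FOS (chr14:75278708-75278827, plus strand): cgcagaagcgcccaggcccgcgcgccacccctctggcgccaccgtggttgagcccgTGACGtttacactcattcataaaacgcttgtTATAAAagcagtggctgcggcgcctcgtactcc
EGR1 (chr5:138465359-138465478, plus strand): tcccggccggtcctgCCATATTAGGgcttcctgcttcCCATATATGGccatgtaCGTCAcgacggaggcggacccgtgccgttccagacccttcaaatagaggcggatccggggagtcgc
SRF (chr6:43171149-43171268, plus strand): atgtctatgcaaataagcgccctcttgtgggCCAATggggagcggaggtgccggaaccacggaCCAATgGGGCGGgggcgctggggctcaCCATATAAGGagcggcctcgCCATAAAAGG

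In those 300 bases a CArG box was found at 2 of the 8 immediate early genes with a promoter entry, EGR1 and SRF, and at 1.20% of 20046 protein-coding promoters. EGR1 had it at -105 and -83 and SRF at -30 and -10, counted from the start. FOS, the gene in which the serum response element was described, had its CArG box farther upstream, at -314. Over the 500 bases before the start, a window added after the data were seen, FOS, EGR1 and SRF held a CArG box and JUN, JUNB, JUND, IER2 and ATF3 did not, against 2.37% of promoters. FOSL1, without a peak in any list, and MYC, with a peak in each, had no promoter entry and were not counted. Among the 8 counted, the 3 genes with the box had no peak in the control list and the 5 without it all had one. The IER2 peak counted here lay inside the gene, 2684 bp after the canonical start in the control list, and not at the promoter searched. FOSL1 and MYC, left out for want of an entry, could alter this split. This split was seen after the values and did not appear over all genes: 13.0% of 476 genes with a CArG box and 13.2% of 19570 genes without it had a control peak. The shares were 8.19% and 7.32% in the U2AF1 knockdown list, and 22.1% and 22.2% in the DHX9 knockdown list.

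The core TGACG, bound by CREB and ATF factors, was present in all 8 promoters, against 29.2% of promoters. At IER2 it lay at -140 from the canonical start, where no peak was listed. Around the first base of IER2 exon 2, where its peak lay, the core was not found. The full element TGACGTCA was present in JUND alone, at -200, against 2.69%, and its letters include the core on both strands. A TATA box lay at -33 in FOS, -31 in JUNB and -32 in ATF3. It was also found in SRF, on the other strand and after the start, so 4 of 8 promoters held these letters, against 9.71%. The GC box was in 5 of 8, against 61.3%, and the CCAAT box in 4 of 8, against 36.1%. The AP-1 site TGACTCA and the E-box CACGTG were in 0 of 8, against 3.57% and 8.75%. Matches are descriptions of these letters and not binding sites.

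JUN encodes the central AP-1 subunit and is a gene without introns (chromosome 1, 58776845 to 58784048, minus strand, for the whole annotated locus). Its control peak, at 58783817 to 58784167, was enriched 5.47-fold and took rank 535 of 2757, percentile 19.4. After U2AF1 knockdown the peak, at 58783837 to 58784117, was enriched 4.46-fold and took rank 1002 of 1730, percentile 57.9. After DHX9 knockdown the peak, at 58783799 to 58784126, was enriched 6.95-fold and took rank 833 of 4443, percentile 18.7. JUN was thus placed lower in the U2AF1 knockdown list. By fold, its shift of 38.5 percentile points was the largest downward move among the immediate early genes, and 9.12% of the 965 protein-coding genes with a peak in both lists moved down by more. With each list reduced to 1730 peaks JUN stood at percentile 30.9, 57.9 and 48.2, placed lower in both knockdown lists. Ranked by −log10 p it stood at 8.78, 19.0 and 11.1, and 44.7% of shared genes moved down by more than its 10.2 points after U2AF1 knockdown, less than the 18.8 points of JUNB. The place of the peak hardly changed, with summits 53, 36 and 55 bp after the start, in the 5′ untranslated part of the exon. The start of the lncRNA gene LINC01135, which runs the other way, lies within the same window. In each list the summit was closer to the JUN start, and the peak ended short of the LINC01135 start. ChIP reads carry no strand, and whether LINC01135 adds to the signal was not tested.

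JUNB encodes an AP-1 subunit that often opposes JUN, and has 1 exon (chromosome 19, 12791486 to 12793315, plus strand). The control peak at 12791398 to 12791694 had a fold of 5.16, rank 660 and a −log10 q, the caller's adjusted significance, of 16.9. The U2AF1 knockdown peak at 12791521 to 12791753 had a fold of 5.81, rank 439 and a −log10 q of 8.05. Its percentiles were 23.9 and 25.4 by fold, but 38.2 and 25.4 in lists of 1730 peaks and 15.5 and 34.3 by −log10 p, so the direction of its move depends on the ranking. Relative to the start, the upstream edge lay at -88 bp in the control list and 35 bp after U2AF1 knockdown, and the summit at 38 and 117 bp. A summit shift of this size or larger was seen in 32.0% of shared genes.

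No peak was listed at JUNB in the DHX9 knockdown list, although that list was the longest. The nearest summit there was 8.46 kb beyond the gene, at the start of PRDX2, a peroxide-reducing enzyme. Of all genes with a control peak, 23.9% had none in the DHX9 knockdown list, and so did 1 of the 6 immediate early genes with a control peak. Among the 965 genes with a peak in both the control and U2AF1 knockdown lists the share was 9.84%. Among the 413 of these in the top 25% of the control list it was 4.60%, or 19 genes with JUNB among them. These narrower sets follow the pattern of JUNB itself, which stood just inside the 25% limit, at percentile 23.9. That limit was set after the data were seen, so the smaller shares do not measure how unusual JUNB is. The gene lies inside the annotated span of HOOK2, which is read on the opposite strand.

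JUND, the AP-1 subunit with the steadiest expression in most cells, is a further gene without introns (chromosome 19, 18279694 to 18281622, minus strand), and had the strongest peak of the group. The main peak, at 18281299 to 18281785 in the control list, had a fold of 11.6 and rank 81. In the U2AF1 knockdown list it lay at 18281391 to 18281736 with a fold of 11.7 and rank 50, and in the DHX9 knockdown list at 18281155 to 18281801 with a fold of 12.8 and rank 104. The percentiles were 2.94, 2.89 and 2.34, and 4.68, 2.89 and 6.01 in lists of 1730 peaks. Of all peaks at protein-coding starts 1.03%, 0.971% and 1.01% had a higher fold.

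The summit of JUND stayed at 67, 28 and 56 bp after the start, but the extent and place of its listed peaks differed between lists. The main peak was 487, 346 and 647 bp wide, and 5.77% of start peaks in the DHX9 knockdown list were wider. A second, upstream peak was listed in the control list, with its summit at -581 bp from the start and rank 885, and after U2AF1 knockdown, at -530 bp and rank 1408. The latter was near the significance limit of its list, with a −log10 q of 1.44, and would be lost at a limit of 5. The microRNA gene MIR3188 starts beside it. The DHX9 knockdown list had no upstream peak. It had instead a second peak 1152 bp after the start, over the coding sequence, with a fold of 5.14, rank 2426 and a −log10 q of 5.19, and 61.9% down its list by −log10 p. A short annotated JUND transcript starts 459 bp before that summit.

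**Figure D2:**
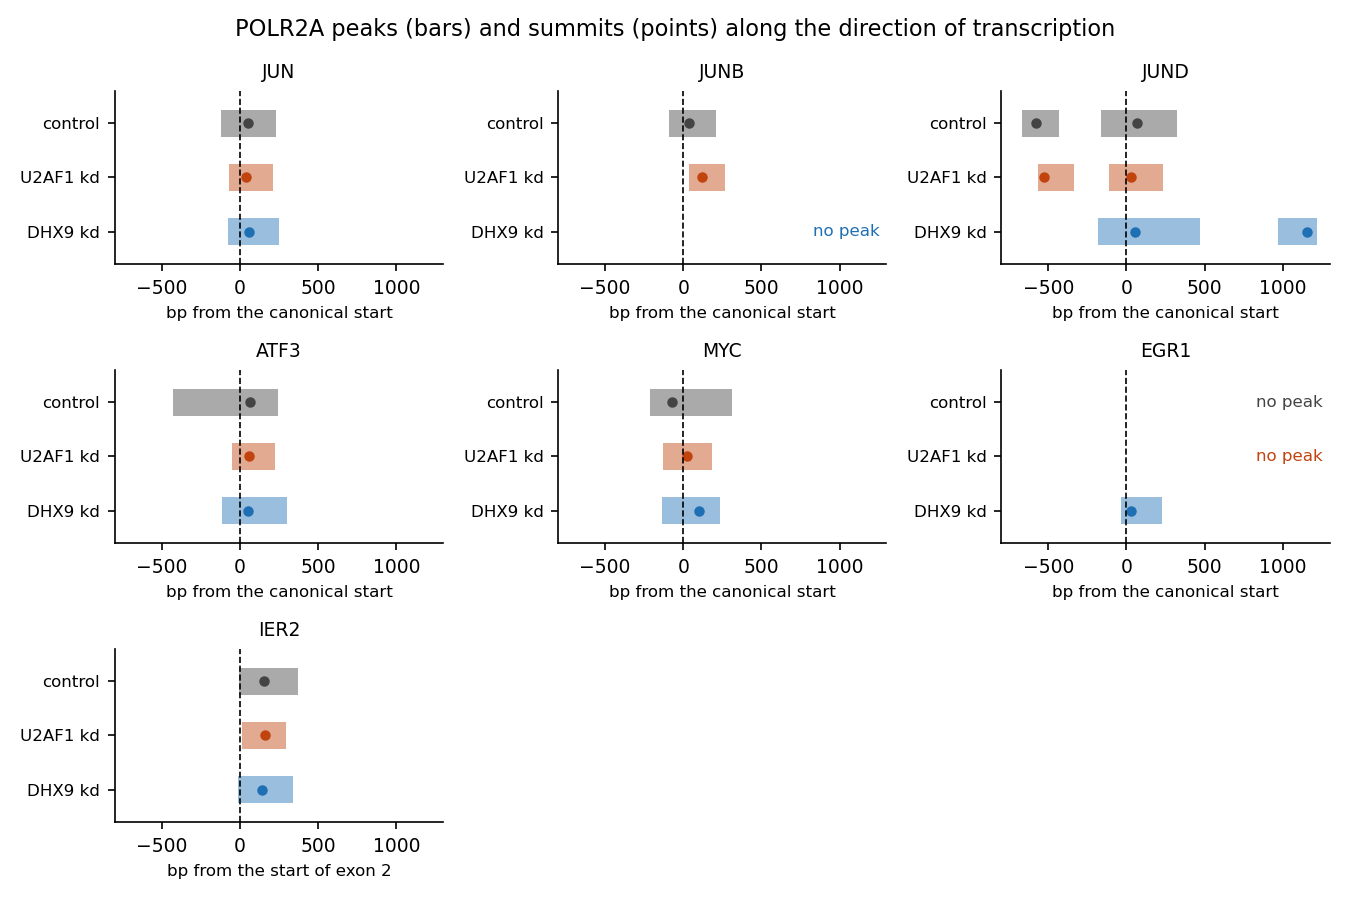
Peaks (bars) and summits (points) at 7 immediate early genes in each condition (kd, knockdown), in bp from the canonical start (dashed line; for IER2 from the start of exon 2), with transcription to the right. Summits cluster just after the start; JUNB lacks a peak in the DHX9 knockdown list, EGR1 has one there alone, JUND has its second peak upstream in 2 lists and over the gene in the DHX9 knockdown list, and the control bar of ATF3 reaches -429 bp.

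Neither FOS nor FOSL1 had a peak, while their relative FOSL2 had one in the DHX9 knockdown list, at rank 3210 with a fold of 4.48. FOS, the classic partner of JUN (chromosome 14, 75278826 to 75282230, plus strand), was far from any listed polymerase: the nearest summit was 515 kb away in the control list, at YLPM1, and 152 kb away in both knockdown lists, at NEK9. FOSL1, which encodes the FOS relative Fra-1 (chromosome 11, 65892049 to 65900573, minus strand), had a near neighbour. A peak stood 1322, 1327 and 1300 bp beyond its 3′ end. Its summit lay 54, 49 and 76 bp after the start of CCDC85B, a gene on the other strand, and it ranked 688, 319 and 835. That peak belongs to the neighbour by position, and none was within 9 kb of the FOSL1 start. The absence of a peak means only that none passed the authors' threshold at a depth that is unknown.

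ATF3 encodes a stress-induced leucine zipper protein that binds cAMP response elements (chromosome 1, 212565334 to 212620777, plus strand). The gene has 7 annotated start positions, and in every list its only peak lay at that of the canonical transcript, 212608761, not at the start of the longer transcripts more than 40 kb upstream. The fold was 7.80, 7.97 and 10.4. The ranks were 174, 147 and 180, or percentiles of 6.31, 8.50 and 4.05. The summits lay 63, 58 and 52 bp after the start.

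What differed at ATF3 was the width of the listed peak. How far width follows depth, which is unknown, or the caller's threshold was not tested. The control peak spanned 212608332 to 212609003, or 672 bp, and 4.66% of start peaks in that list were wider. The U2AF1 knockdown peak spanned 212608708 to 212608983, or 276 bp, and the DHX9 knockdown peak 212608648 to 212609061, or 414 bp. The upstream edge accounted for most of this: it stood at -429, -53 and -113 bp from the start, and the downstream edge at 242, 222 and 300 bp. Over all shared genes the median width after U2AF1 knockdown was 0.837 times the control width, and ATF3, at 0.411 times, was undercut by 5.08% of them. In the DHX9 knockdown list the median was 1.05 times, and 6.95% of 2013 shared genes were below the 0.616 times of ATF3. Both comparisons share the wide control peak.

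EGR1, a zinc finger factor often used as a readout of this response (chromosome 5, 138465479 to 138469303, plus strand), had a peak in the DHX9 knockdown list alone. It lay at 138465444 to 138465708, with its summit 31 bp after the start. It was weak for that list, with a fold of 4.13, a −log10 q of 2.63 and rank 3650 of 4443, and 88.0% of start peaks there had a higher fold. Of the 17400 genes without a control peak, 14.0% had one in the DHX9 knockdown list and 2.91% in the U2AF1 knockdown list. Of the 4 immediate early genes without a control peak, 1 and 0 did. The EGR1 peak is lost with a −log10 q of at least 5, and also when each list is reduced to its 1730 most significant peaks. The nearest control summit was 74.3 kb from the gene and the nearest U2AF1 knockdown summit 127 kb.

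MYC, a growth-promoting transcription factor gene (chromosome 8, 127735434 to 127742951, plus strand), had a peak around its canonical start at 127736231 in all lists. The peaks were at 127736021 to 127736540, 127736099 to 127736413 and 127736098 to 127736469. The folds were 6.16, 6.53 and 7.47, and the ranks 323, 277 and 596, or percentiles of 11.7, 16.0 and 13.4. Here the summit moved most among the immediate early genes, from -74 bp of the canonical start in control cells to 27 bp with U2AF1 depleted and 98 bp with DHX9 depleted. Shifts at least as large were seen in 26% and 19.7% of shared genes. MYC is transcribed from several nearby promoters, and 14 start positions are annotated. The control summit was at -63 bp from the nearest of them. The lncRNA gene CASC11 overlaps the same place.

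IER2, a small growth-induced nuclear protein (chromosome 19, 13150411 to 13154911, plus strand), had its peak inside the gene and not at an annotated start. The summits lay 2684, 2695 and 2671 bp after the canonical start. They were over exon 2, which runs from 13152944 to 13154911 and holds the whole coding sequence. The summits stood 151, 162 and 138 bp after the first base of that exon and 92, 81 and 105 bp before the start codon. No peak was listed at the canonical start. The nearest annotated IER2 start was still 1120, 1131 and 1107 bp upstream of the summits, while a lncRNA gene on the other strand, ENSG00000287296, starts close to the upstream edge of the peak.

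The fold at IER2 was 6.11, 7.03 and 8.43, the rank 337, 215 and 354, and the percentile 12.2, 12.4 and 7.97. In lists of 1730 peaks the percentile was 19.5, 12.4 and 20.5, which turns the direction of both comparisons. Its upstream edge was at 13152936, 13152959 and 13152930, all within 15 bp of the first base of exon 2, where the intron ends. Whether this place relates to the splice site, to U2AF1 or to another gene's start nearby was not tested. The last 120 bases of that intron are shown because the peak begins at their end. Capitals mark the final AG, the kind of dinucleotide that U2AF1 recognises at 3′ splice sites.
IER2, before exon 2 (chr19:13152824-13152943, plus strand): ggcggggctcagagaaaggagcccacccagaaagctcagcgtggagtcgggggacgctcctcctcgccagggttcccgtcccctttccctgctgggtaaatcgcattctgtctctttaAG

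SRF, the serum response factor that activates many of the genes above (chromosome 6, 43171269 to 43181506, plus strand), had no peak. The nearest summit was 395, 281 and 47.9 kb from the gene, the last at the start of DNPH1.

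Seen as a group, the strongest start peak of each gene had its summit after the start in all but 1 case, the control peak of MYC. Over the 5 genes with a start peak the median offset was 53, 36 and 55 bp. Over all peaks at protein-coding starts it was 25, 35 and 19 bp, with middle quartiles from -22 to 59, from -10 to 76 and from -26 to 63 bp. The median width over the 6 genes with a peak was 434, 281 and 362 bp, against 322, 282 and 325 bp over all start peaks. Both medians count JUNB in the control and U2AF1 knockdown lists and EGR1 instead in the DHX9 knockdown list. In the control list 3 of the 6 peaks, those of ATF3, MYC and JUND, were above the upper quartile of start peaks, 429 bp. In the U2AF1 knockdown list, with an upper quartile of 359 bp, 0 of 6 were. In the DHX9 knockdown list, with an upper quartile of 446 bp, JUND alone was, at 647 bp. By definition about 25% of start peaks lie above the upper quartile, and with 6 peaks in each list these counts are not read as a difference.

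Changes of rank against the control list were compared with those of all genes with a peak in both lists. In the U2AF1 knockdown list JUNB, JUND, IER2, MYC and ATF3 moved by 1.44, -0.048, 0.204, 4.30 and 2.19 percentile points, where a positive value is a lower place. The 965 shared genes had a median of 1.44 points and middle quartiles from -13.6 to 17.8. In the DHX9 knockdown list JUN, JUND, IER2, MYC and ATF3 moved by -0.657, -0.597, -4.26, 1.70 and -2.26 points. The 2013 shared genes had a median of -6.39 points and middle quartiles from -26.6 to 10.8. JUN in the U2AF1 knockdown list was the only one of these 11 values outside the middle quartiles. These values rest on lists of unequal length. In lists of 1730 peaks JUN, JUNB, JUND, IER2, MYC and ATF3 moved by 27.0, -12.8, -1.79, -7.05, -2.66 and -1.56 points after U2AF1 knockdown, where 775 shared genes had a median of -3.58 points and middle quartiles from -22.4 to 9.39. JUN alone of these 6 was again outside the quartiles. After DHX9 knockdown JUN, JUND, IER2, MYC and ATF3 moved by 17.2, 1.33, 0.983, 15.8 and 0.347 points, where 945 shared genes had a median of -0.983 points and middle quartiles from -19.2 to 16.0, and JUN was just outside them. Of the 11 shifts, 8 changed sign between the full and the equal lists, so apart from JUN after U2AF1 knockdown, JUND after U2AF1 knockdown and MYC after DHX9 knockdown no direction held under both. Both comparisons share the control list.

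**Figure D3:**
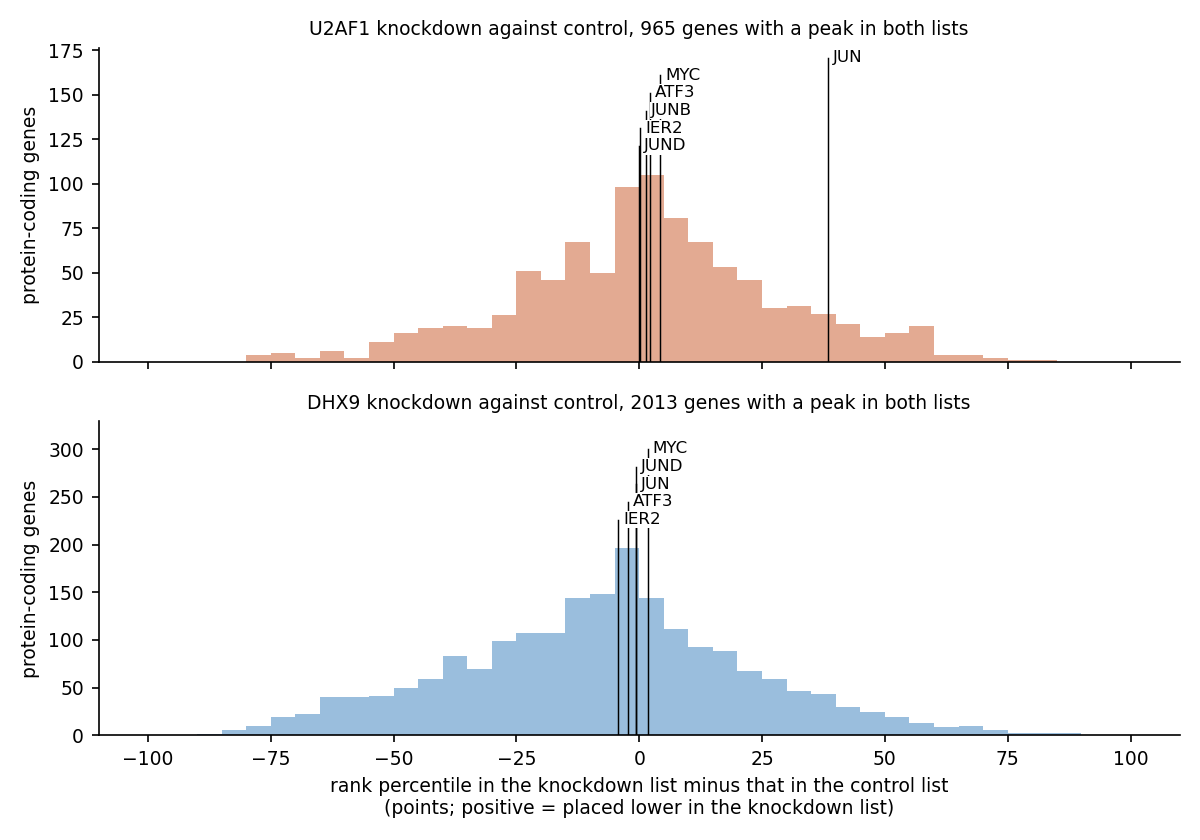
Change in rank percentile of the strongest peak from control to U2AF1 knockdown (top, 965 protein-coding genes with a peak in both) and to DHX9 knockdown (bottom, 2013 genes); bars count genes in steps of 5 points and lines mark immediate early genes. The lists are of unequal length; in these full lists JUN stands apart in the upper panel at 38.5 points, and the other lines lie between -4.26 and 4.30 points, most of them changing sign in lists of equal length.

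The structure of the 10 genes was also set beside that of all protein-coding genes. Of the canonical transcripts of the 10 genes, 3 have a single exon (JUN, JUNB and JUND), or 30.0%, against 5.64% of protein-coding genes. The median length of the 10 genes was 5.85 kb against 27.4 kb. Of the 8 genes with a promoter entry, the 500 bases after the canonical start had a median GC content of 68.5%, against 63.8% over all genes and 69.2% over genes with a control peak at a start. JUND was the richest, at 78.6%, and IER2 the poorest, at 60.8%. The canonical start of IER2 had no listed peak, and counted from the first base of exon 2, where its peak lay, the content was 67.2%. An excess of G over C on the coding strand after the start is the composition associated with R-loops, which the series concerns. As a percentage of G and C together it had a median of -1.71 in these 8 genes, against 5.26 over all genes and 6.81 over genes with a control peak at a start. ATF3, at -16.6, and EGR1, at -15.4, had more C than G there, and IER2, at 13.8, and JUN, at 8.33, more G than C. Counted from the first base of exon 2, IER2 had 5.36. SRF had 5.45, JUND -0.254, JUNB -3.17 and FOS -4.73.

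Other immediate early genes were taken as a list of 50, among them the KLF, DUSP, NR4A, ZFP36 and GADD45 families. Of these, 17, 13 and 23 had a peak, or 34%, 26% and 46%. This list followed the lengths of the peak lists, as protein-coding genes did. The median percentiles of those with a peak were 14.3, 16.0 and 19.6. A peak was present in all 3 lists at 10 genes and in none at 26, against 4.34% and 73.6% of all protein-coding genes.

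ID2, an inhibitor of helix-loop-helix factors, stood highest of them in the control list and had ranks of 45, 100 and 133. RHOB, a small GTPase, had ranks of 437, 61 and 225, and CITED2, a regulator of the coactivator CBP, had ranks of 183, 100 and 627. IER5L ranked 162, 698 and 321. BTG1, an antiproliferative gene, ranked 135 in the control list and 386 in the DHX9 knockdown list, and IER5 324 and 95. Neither had a peak in the U2AF1 knockdown list. ZFP36L2, which promotes decay of AU-rich mRNA, had no control peak and ranked 663 and 306 in the U2AF1 and DHX9 knockdown lists.

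Among these 50, the U2AF1 knockdown list lacked 6 of the 17 genes of the control list. It had 2 that the control list lacked, ZFP36L2 and PPP1R15A. Of all protein-coding genes with a control peak, 63.5% had none in the U2AF1 knockdown list. Of those without a control peak, 2.91% had one there. The DHX9 knockdown list lacked 1 of the 17 and had 7 more, where the same shares over all genes were 23.9% and 14.0%. The gene missing from the DHX9 knockdown list was CCN1, which encodes a secreted matrix protein and is named after its values were seen. CCN1 ranked 703 in the control list and 257 in the U2AF1 knockdown list, the same pattern of presence as JUNB.

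**Figure D4:**
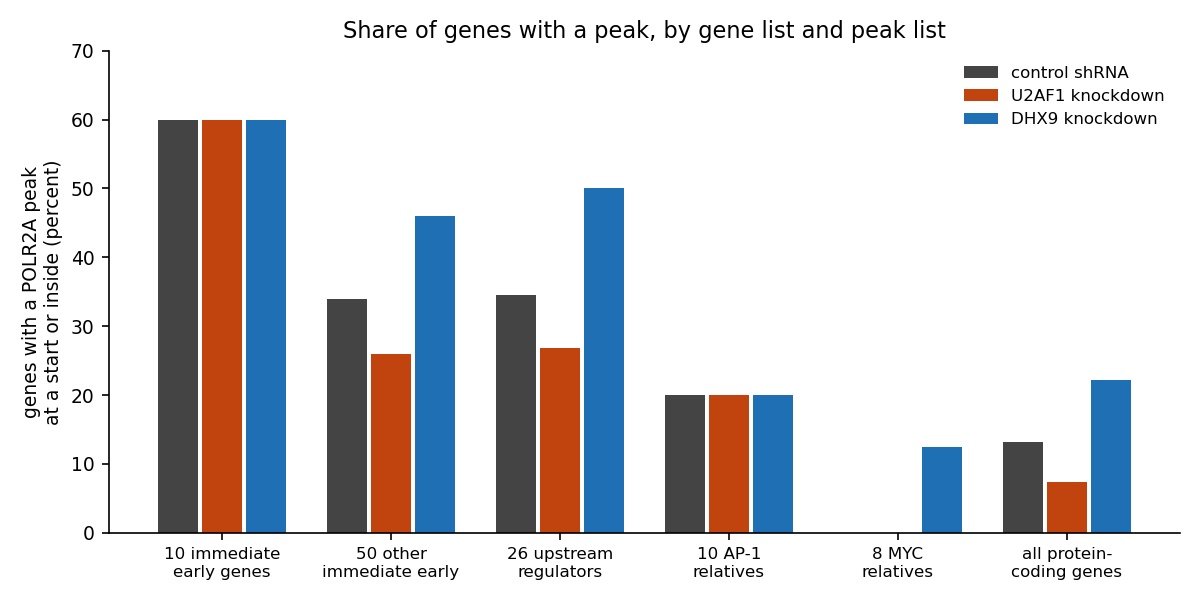
Share of genes with a POLR2A peak at a start or inside the gene (vertical axis, percent, from 0) in each condition, for the 10 immediate early genes, 4 related gene lists and all 20046 protein-coding genes. The 10 genes stand at 60% in each list, with EGR1 in place of JUNB in the DHX9 knockdown list, and the 10 AP-1 relatives at 20% in each. The 50 other immediate early genes, the regulators and all genes are lowest in the U2AF1 knockdown list and highest in the DHX9 knockdown list.

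The kinases, coactivators and factors that act on immediate early genes formed a list of 26. A peak was present at 9, 7 and 13 of them, or 34.6%, 26.9% and 50%. MAPK14, the stress kinase p38 alpha, ranked 271, 225 and 320. ELK4, a ternary complex factor that binds with SRF, ranked 404, 132 and 954. MAP2K2, which encodes the kinase MEK2, ranked 1349, 292 and 301. MRTFB, a coactivator of SRF, ranked 1268, 628 and 631. These 4 genes had a peak in every list, and SRF in none.

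Of 10 AP-1 partners and relatives 2 had a peak in each list, or 20%. ATF4, the main factor of the integrated stress response, ranked 1285, 742 and 575. DDIT3, one of its targets, ranked 959 and 1324 in the control and DHX9 knockdown lists and had no U2AF1 knockdown peak. Of 8 MYC partners and relatives, MAX among them, 0, 0 and 1 had a peak, the last being MXD1 at rank 3911 of the DHX9 knockdown list.

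The lists as a whole held 2757, 1730 and 4443 peaks, and the number of reads behind them is unknown, so how far list length follows depth was not tested. The labelled cell type could be checked only through listed polymerase. Of 6 genes expressed in HEK293 lines VIM had a peak in each list, and KRT8, KRT18, PAX2, NEFL and NEFM had none. Of 8 markers of other cell types, from ALB to HBB, 0 had a peak in any list.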

How the data were processed

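POLR2A ChIP-seq of HEK293T cells was used as 3 peak lists. The labels tie each list to the pair of ChIP replicates of its condition. Peak names in the control list end as if called from replicate 1, so whether that list rests on 1 library or on both is not known. The submitters' processing notes name Bowtie2 2.4.5, MACS2 2.2.7.1, deepTools 3.5.1 and hg38, with no roles. The caller's settings and the use of the inputs are not given in the sources used here. The deposited values were a fold enrichment per peak (a ratio) and the −log10 of its p-value and q-value, as the authors gave them, with the summit position. The lowest −log10 q was 1.31 (control), 1.30 (U2AF1 knockdown) and 1.31 (DHX9 knockdown). The depth is unknown. Chromosome names matched GRCh38, with 0 names missing and 0 peaks past a chromosome end. Coordinates count from 1.

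Summits were assigned to genes of GENCODE version 44, and the assignment was tested on simulated peaks. Where a gene had several peaks, the one with the highest fold was used. Ranks count from the highest fold. Offsets are positive after the start. The canonical start is that of the transcript tagged Ensembl_canonical. Sequence was read from GRCh38, and FOSL1 and MYC have no entry in the RefSeq promoter table. Tools were Python 3.11.15, pandas 2.3.3 and numpy 2.4.6.

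The genes and lists were chosen with earlier results of these data known. Named genes were the 10 members. From each further list they were the 3 genes ranked highest in each peak list, and any gene in 1 or 2 peak lists that stood in the top 10%. FOSL2, PPP1R15A and CCN1 were named outside this rule, with their values known. Some genes that this rule names are not reported here. Alternatives were a −log10 q of at least 5, equal list sizes, other start windows and start definitions, ranking by −log10 p, ranking among coding starts, start peaks only, and merging.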

Additional observations from a re-analysis of the deposited data

How the results depend on the processing

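Of 84 alternative values of the summary results, 61 stayed and 23 moved, where a count was taken to stay within 1.5 times its reported value and any other value only if identical. The number of immediate early genes with a peak was 5 or 6 under every setting tried: EGR1 left the DHX9 knockdown list under a −log10 q limit of 5 and under equal list sizes, and IER2 left all 3 lists when a peak at the start was required. JUNB stayed absent from the DHX9 knockdown list in every setting tried. Keeping peaks whose −log10 q reached 5 gave a median percentile of 16.8 (control), 23.8 (U2AF1 knockdown) and 12.4 (DHX9 knockdown), and protein-coding genes with a peak fell to 1922, 847 and 2950 in the same order. With equal list sizes of 1730 the percentile was 19.1 in the control and 20.5 in the DHX9 knockdown list, with 1694 and 1796 genes. Against 14.2 in the U2AF1 knockdown list this turned the order of the lists. Of the rank shifts against control, 12 alternative values changed sign. At equal list sizes these were JUNB (-12.8), IER2 (-7.05), MYC (-2.66) and ATF3 (-1.56) after U2AF1 knockdown, and JUN (17.2), JUND (1.33), IER2 (0.983) and ATF3 (0.347) after DHX9 knockdown. Under the −log10 q limit they were JUND (0.723) after U2AF1 knockdown and JUN (2.04) after DHX9 knockdown, and with ranks by −log10 p JUND (1.96) and JUN (2.30) in the same comparisons. The cause was not tested. Both settings gave a median width of 372 bp and a median offset of 55.5 bp in the DHX9 knockdown list, since EGR1 is not counted. Ranking by −log10 p gave percentiles of 8.87, 17.1 and 9.36, and ranking among peaks at coding starts, which leaves out IER2, gave 10.7, 16.2 and 13.2. A start window of 2000 bp, which takes in IER2, gave median offsets of 58, 47 and 55.5 bp. Merging within 1000 bp widened the control median to 450 bp. No paired analysis was possible because single lists carry no replicate numbers, and for the same reason no replicate could be left out. Depth limits every absence: it is unknown from the lists, and the caller's threshold decides which weak peaks are listed.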
